A study of Mus musculus with 18 samples.

Results

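Lysophosphatidic acid (LPA) and sphingosine 1-phosphate (S1P) are small lipids that cells release and sense through G-protein-coupled receptors. The 10 genes examined here make, export, degrade or sense these lipids, and they were chosen by gene symbol: Enpp2, Ppap2a, Ppap2b, Lpar1, Lpar4, Lpar6, S1pr1, S1pr3, Spns2 and Sphk1. Earlier results of these data were known at the choice, so shares and medians of these genes set beside all genes are descriptions only. All 10 were found among the 23238 gene symbols of the count tables. Ppap2a and Ppap2b are older symbols of the lipid phosphate phosphatase genes Plpp1 and Plpp3.

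RNA was counted in 18 libraries of cells sorted from the small intestine of adult C57BL/6J mice. The intestinal stromal cells (IntSCs) were PDGFRb+ cells, a mixture of fibroblasts, smooth muscle cells and pericytes. The study describes the lymphatic endothelial cells (LECs) as those of the lacteals, which drain lymph from the intestinal villi. It describes no removal of the submucosa, so they may include LECs of submucosal vessels. The WT libraries (6 of IntSCs, 4 of LECs) came from mice that carried Cre-ERT2 under the Pdgfrb promoter and a tdTomato reporter, and the LATS1/2 KO libraries (5 of IntSCs, 3 of LECs) came from mice with the same alleles plus floxed Lats1 and Lats2. The study asked what the deletion does in the stromal cells and in the neighbouring LECs. The Cre is inducible by tamoxifen and driven in PDGFRb+ cells, so in the KO mice the LECs were not the targeted cells. The IntSCs were sorted after depletion of CD45, CD326 and CD31 cells, and the LECs by CD31 and podoplanin after depletion of CD45 and CD326 cells. The labels do not say whether libraries of a group came from separate animals. The study's legends give mice per group in ranges that match the library numbers of both cell types, as for a separate mouse per library. They also describe pooling over independent experiments. Which library belongs to which experiment is not given in the labels, so the experiment was not modelled. The p-values measure the spread between libraries, which may be in part technical and may include differences between experiments.

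Autotaxin, the product of Enpp2, makes LPA outside the cell, and the lipid phosphate phosphatases remove the phosphate from LPA and S1P at the cell surface. Sphingosine kinase 1 (Sphk1) makes S1P inside the cell and Spns2 carries it out, and lymphatic endothelium is known to supply the S1P of lymph in this way. Through their receptors, both lipids are known to restrain the LATS kinases and so to release the co-activators YAP and TAZ, which bind DNA with TEAD factors.

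To set the promoters beside the expression values, the 250 bases before the transcription start are printed for 3 of these genes, from the RefSeq promoter table of assembly GRCm38.p6. Ppap2b was the member that passed the test between the stromal genotypes, Spns2 had the largest stromal fold change with no overlap of the libraries, and Sphk1 held a TEAD motif. Capitals mark the letters GGAATG, or CATTCC for the other strand, which is the core that TEAD factors recognise.
Ppap2b promoter (chr4:105157097-105157346, plus strand): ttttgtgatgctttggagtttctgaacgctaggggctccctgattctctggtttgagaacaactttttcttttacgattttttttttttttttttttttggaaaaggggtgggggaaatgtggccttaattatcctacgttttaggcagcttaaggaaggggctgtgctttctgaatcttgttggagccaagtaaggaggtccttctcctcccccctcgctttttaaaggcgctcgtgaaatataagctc
Spns2 promoter (chr11:72475028-72475277, minus strand): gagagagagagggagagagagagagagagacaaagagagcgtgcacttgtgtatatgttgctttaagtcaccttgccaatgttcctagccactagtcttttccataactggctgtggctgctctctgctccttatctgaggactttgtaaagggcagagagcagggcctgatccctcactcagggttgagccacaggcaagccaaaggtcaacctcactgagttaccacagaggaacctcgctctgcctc
Sphk1 promoter (chr11:116530850-116531099, plus strand): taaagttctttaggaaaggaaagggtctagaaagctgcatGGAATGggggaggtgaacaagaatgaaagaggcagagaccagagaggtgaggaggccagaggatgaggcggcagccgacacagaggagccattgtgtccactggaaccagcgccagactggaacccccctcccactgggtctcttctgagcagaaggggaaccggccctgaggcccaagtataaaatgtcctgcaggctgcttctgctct

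The table held a promoter for 7 of the 10 genes (none for Enpp2, Ppap2a and S1pr1), and 2 of the 7 contained the motif within 300 bases (250 before the start and 50 after it). These were Sphk1, whose match began 210 bases before the start (position -210), and Lpar6, whose match began at position -23. Over all 32851 promoters of that length, 14.7% contained it on either strand. The windows start from the transcript start that the table uses, which for Lpar1, Spns2 and Sphk1 lies inside the annotated span of the gene. A match is only a match of letters, and no match says only that these letters were absent from this window.

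Between 5361250 and 10549233 reads were counted in a library. At least 1 read was held by 10576 to 11001 genes in each KO LEC library and 11490 to 12059 in each WT LEC library. In each IntSC library it was 11848 to 15926 genes. Levels are given as CPM, read counts scaled to a common library size with TMM factors over all 18 libraries. The counts of the targeted genes did not check the labels: Lats1 ranged from 0 to 29.9 CPM in WT IntSCs and from 12.5 to 21.6 CPM in KO IntSCs, and Lats2 from 40.8 to 112 CPM and from 78.4 to 133 CPM (log2 fold changes of -0.12 ± 0.67 and 0.65 ± 0.23, SE, edgeR adjusted p of 0.987 and 0.252). These 3′ reads can still count a transcript that has lost internal exons, and directions below are those of the libraries labelled KO. Prox1 and Pdgfrb matched the labelled cell types, though not every listed marker did. The podoplanin gene Pdpn was at 305 CPM in WT LECs and 236 CPM in WT IntSCs, but at 187 and 326 CPM in the KO groups. The 7 blood endothelial markers summed to 12754 to 16986 CPM in WT LECs and 10492 to 14488 CPM in KO LECs. The largest of them there was Aqp1, at 13120 and 12072 CPM on average. The lymphatic master regulator Prox1 reached 52.2 ± 24.0 CPM in the 4 WT LEC libraries and 0.0786 ± 0.0870 CPM in the 6 WT IntSC libraries (mean ± SD), where Pdgfrb was 28.2 ± 29.5 CPM and 479 ± 162 CPM. WT LEC 1 stood apart, with 2235 CPM summed over 9 stromal markers against 639 to 682 CPM in the other WT LEC libraries and 327 to 563 CPM in the KO LECs. The sum of 6 Paneth cell markers was higher in each KO group, at 37.3 to 109 CPM against 0.269 to 6.21 CPM in WT IntSCs and 12.5 to 91.5 CPM against 0 to 0.738 CPM in WT LECs, and the 9 stromal markers summed to 11864 to 17224 CPM in WT IntSCs and 7842 to 13426 CPM in KO IntSCs. The part of these differences in the results was not tested.

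The 10 genes divided by cell type. In WT mice, 7 of the 10 passed the edgeR test of LECs against IntSCs (threshold of 0.05 on the adjusted p), where 22.6% of all 12203 genes tested did, 10.3% higher and 12.3% lower in LECs. Ppap2a, S1pr1 and Spns2 were higher in LECs, and Ppap2b, Lpar1, S1pr3 and Sphk1 were lower. In KO mice, 7 of the 10 also passed, against 25.9% of 12758 genes (9.11% higher and 16.8% lower): Ppap2a, S1pr1 and Spns2 higher in LECs, and Ppap2b, Lpar1, Enpp2 and Lpar4 lower. The median log2 fold change of the 10 genes was -1.09 in WT and -1.81 in KO mice, beside -0.04 and -0.21 for all genes tested, and the KO median was the same with Lpar4 at the bound given below.

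**Figure D1:**
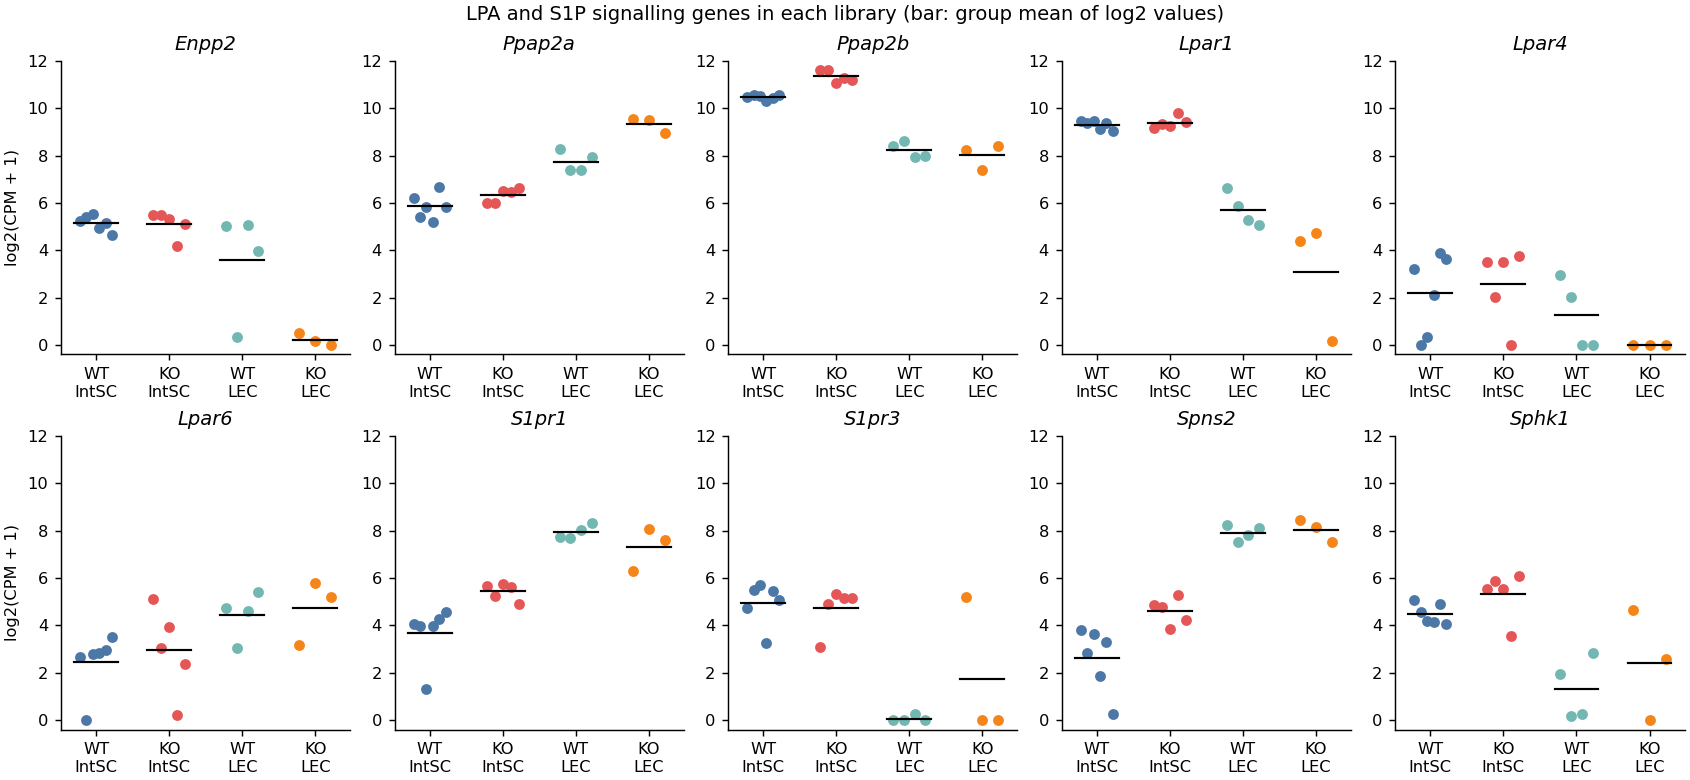
Level of each of the 10 genes in every library, as log2(CPM + 1) on the vertical axis, for WT and KO IntSCs and WT and KO LECs. Points are libraries and bars are group means of the log2 values. Spns2 and S1pr1 sit higher in LECs, Ppap2b and Lpar1 higher in IntSCs, and S1pr3 is at 0 CPM in all LEC libraries except KO LEC 1 and WT LEC 3.

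Between genotypes, fewer of the 10 passed. In IntSCs, 1 of 10 did, Ppap2b, against 1.47% of 12421 genes. The KO libraries lay wholly above the WT libraries for Ppap2b, S1pr1 and Spns2, 3 of 10, where 1.63% of all genes tested did. The median log2 fold change was 0.66 for the 10 genes and 0.00 for all genes. In LECs, 8 of the 10 passed the filter on low counts (Lpar4 and S1pr3 did not) and 0 of the 8 passed the edgeR test, where 0.0658% of 10639 genes did. Of the 10639 genes tested in LECs, 837 had an unadjusted p under 0.05, among them Enpp2 and Ppap2a. DESeq2 called these 2 genes, but over all genes it called many more in LECs than the 7 of edgeR (number in the last section). The LEC libraries did not overlap for Ppap2a (KO above WT, as for 4.01% of all genes) and for Lpar1 (KO below WT, as for 5.8%), and the median was -0.02 for the 8 genes and -0.03 for all genes. In simulated data with a log2 fold change of 2, the same test recovered 88% of changed genes above 20 CPM in the IntSC design (11895 genes) and 27.5% in the LEC design (10092 genes). False calls were 15 of 191 in the IntSC design and 3 of 58 in the LEC design. Only genes with a mean above 20 CPM were changed, so recovery at lower levels is not known.

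**Figure D2:**
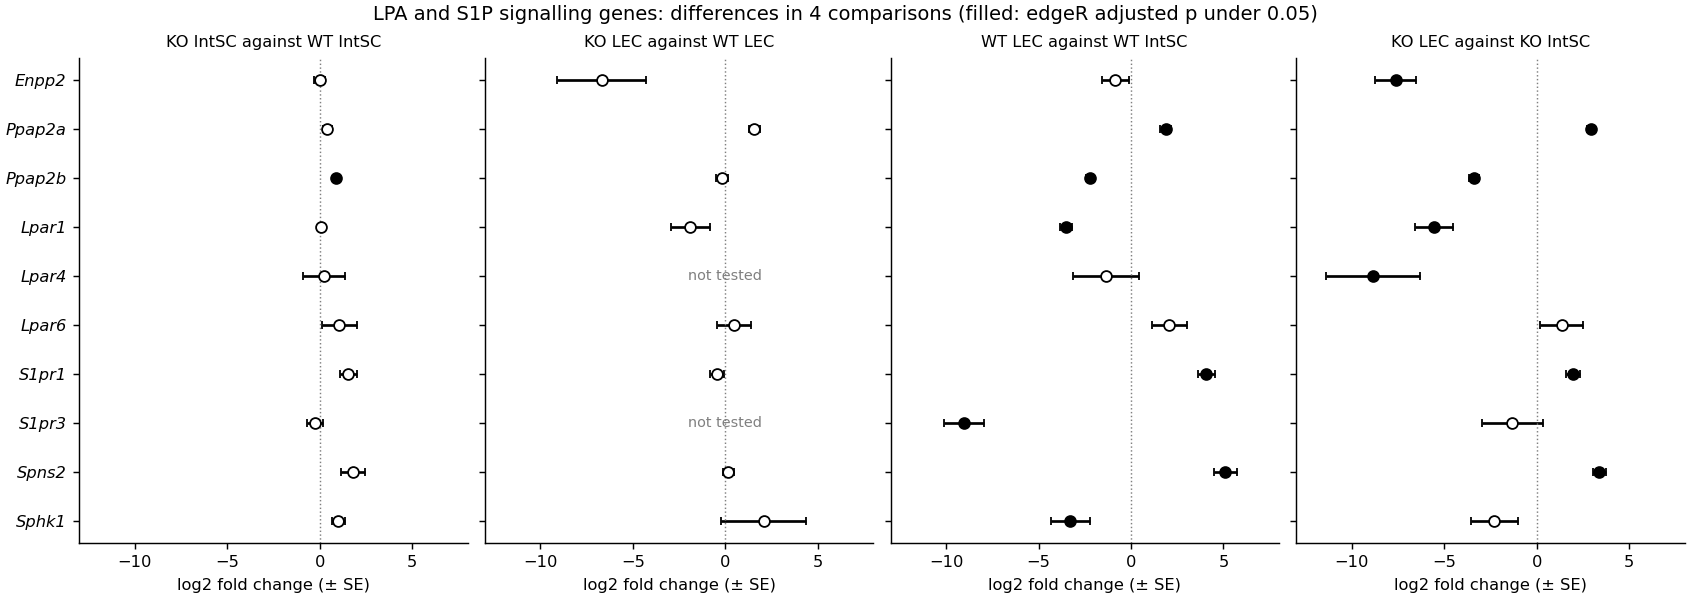
Log2 fold change (horizontal axis, ± SE) of each gene in the 4 comparisons of groups, from the edgeR fit of each comparison. Filled points have an adjusted p under 0.05: Ppap2b between the IntSC genotypes, none between the LEC genotypes, and 7 genes in each comparison of cell types. The fitted value of Lpar4 in KO mice is set by 0 reads in the KO LECs and is no measure of size.

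LPA production was examined through Enpp2 (chr15:54838901-54952789). Its level did not differ detectably between the IntSC groups, with a lowest, median and highest value of 24.4, 36.3 and 44.9 CPM in the WT libraries and 44.2, 43.7, 38.9, 17.1 and 33.8 CPM in KO IntSC 1 to 5. On the log2 scale the KO and WT IntSCs differed by -0.00 ± 0.30 (SE, 95% interval -0.59 to 0.59, edgeR adjusted p = 0.999). Enpp2 in the LECs was 31.8, 0.246, 32.4 and 14.5 CPM in WT LEC 1 to 4 and 0.427, 0.109 and 0 CPM in KO LEC 1 to 3. The KO LECs held 4 reads in all, at most 3 in a library, while 3 of 4 WT LEC libraries held 146 to 347 reads and WT LEC 2 held 2. WT LEC 2 lay within the range of the KO libraries, so the groups overlapped. Summed over libraries the WT LECs had 126 times the level of the KO LECs, with a counting interval of 48.9 to 463. The edgeR adjusted p was 0.481. It was 0.00496 with DESeq2 and 0.00243 with all 4 groups sharing an estimate of the spread (range over these alternatives 0.00243 to 0.9996). In each fit that left out WT LEC 1, WT LEC 3 or WT LEC 4, Enpp2 did not pass the filter on low counts. Fewer genes were detected in the KO LECs than in the WT LECs, and the part of this in the low counts was not tested.

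Enpp2 was lower in KO LECs than in KO IntSCs (edgeR adjusted p = 8.50e-04), and the pooled ratio of IntSCs to LECs was 216 (84.0 to 792). In WT mice the log2 fold change of LECs against IntSCs was -0.84 ± 0.74 (SE, edgeR adjusted p = 0.493). The change between genotypes in IntSCs minus that in LECs was 6.76 ± 1.34 on the log2 scale (SE, edgeR adjusted p = 0.00799), 1 of 3 such differences called among the 10 genes, where 1.7% of 14015 genes were. It was called in all 18 fits that left out 1 library, with values from 6.23 to 8.13, and in 3 of 4 other alternatives (edgeR or DESeq2 adjusted p of 7.52e-06 to 0.417). These fits share an estimate of the spread over IntSCs and LECs, so their p-values do not measure the spread of the LECs alone. The value is set by the 4 Enpp2 reads of the KO LECs and is imprecise as a measure of size. The median of this difference over all genes was 0.24, or 0.13 with RLE in place of TMM factors.

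The lipid phosphate phosphatases had opposite patterns over the cell types. Ppap2b (chr4:105157347-105232767), which encodes the phosphatase LPP3, had a lowest, median and highest level of 1266, 1449 and 1524 CPM in WT IntSCs. In KO IntSC 1 to 5 it was 3181, 3171, 2183, 2493 and 2369 CPM. Every KO IntSC library lay above every WT library, a 1.86-fold difference (log2 fold change 0.90 ± 0.14, SE, edgeR adjusted p = 0.00163). This rise was called in all 11 fits that left out 1 library (0.83 to 0.96) and under all 5 other alternatives.

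Ppap2b in the LECs was 338, 398, 248 and 250.3 CPM in WT LEC 1 to 4 and 301, 168 and 335 CPM in KO LEC 1 to 3. These groups overlapped (log2 fold change -0.19 ± 0.31, SE, 95% interval -0.80 to 0.42, edgeR adjusted p = 0.9999). LECs lay below IntSCs in both genotypes, by log2 fold changes of -2.22 ± 0.20 in WT and -3.39 ± 0.29 in KO mice (SE, edgeR adjusted p of 1.03e-06 and 2.25e-05). The IntSC change minus the LEC change was 1.16 ± 0.30 (SE, edgeR adjusted p = 0.0434). That call was near the threshold: it held in 5 of the 18 fits that left out 1 library (those without KO IntSC 3, WT LEC 3, WT LEC 4, KO LEC 1 or KO LEC 3), and the adjusted p was 0.0218 to 0.0888 over the 18.

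Ppap2a (chr13:112800777-112867894), which encodes the phosphatase LPP1, was highest in the LECs of the KO mice. It was 307, 169, 167 and 247 CPM in WT LEC 1 to 4. In KO LEC 1 to 3 it was 742, 726 and 495 CPM, each above every WT LEC library. The 2.97-fold difference (log2 fold change 1.57 ± 0.28, SE) had an edgeR adjusted p of 0.0723. The adjusted p was 3.14e-05 with DESeq2, 0.00903 with all 4 groups in the fit, 0.00266 with no filter beyond 1 read and 0.0587 with RLE factors (range over the 5 alternatives 3.14e-05 to 0.189), and 0.0889 to 0.303 in the fits that left out 1 library.

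Ppap2a in IntSCs had a lowest, median and highest level of 35.9, 55.8 and 101 CPM in WT. It was 63.8, 63.7, 90.1, 88.6 and 97.2 CPM in KO IntSC 1 to 5, and WT IntSC 5 lay above all of these (log2 fold change 0.41 ± 0.26, SE, edgeR adjusted p = 0.686). LECs were above IntSCs, 3.67-fold in WT and 7.71-fold in KO mice (log2 fold changes of 1.87 ± 0.30 and 2.95 ± 0.24, SE, edgeR adjusted p of 3.00e-04 and 1.49e-05). Every LEC library lay above every IntSC library of its genotype. Ppap2a overlaps Mtrex in the annotation and the strand setting of the counting is not given in the sources used here, so reads of the overlapping part cannot be told apart.

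**Figure D3:**
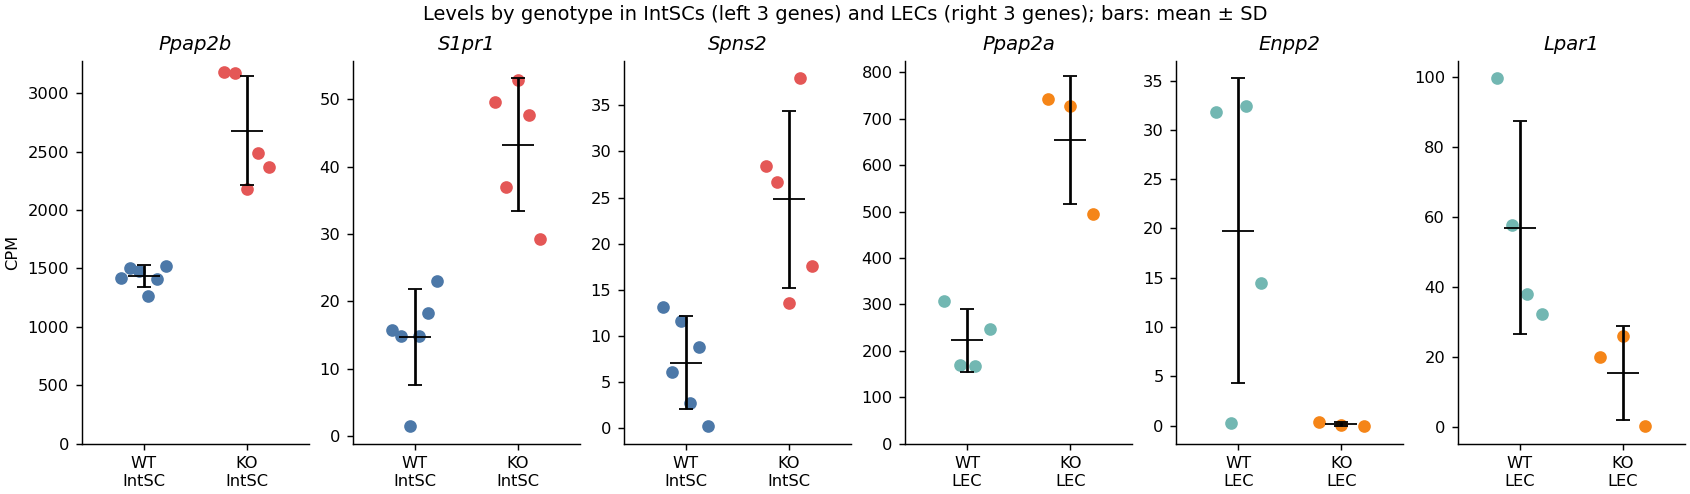
Levels in CPM (vertical axis, each panel with its own scale) of Ppap2b, S1pr1 and Spns2 in WT and KO IntSCs and of Ppap2a, Enpp2 and Lpar1 in WT and KO LECs. Points are libraries and bars are the mean ± SD. The KO libraries lie wholly above WT for the 3 stromal panels and Ppap2a, wholly below WT for Lpar1, and overlap WT LEC 2 for Enpp2.

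Among the LPA receptors, Lpar1 (chr4:58435252-58554027), which couples to several G proteins, was higher in the stromal cells. Its lowest, median and highest level was 531, 659.6 and 711 CPM in WT IntSCs, and it was 581, 654, 604, 891 and 679 CPM in KO IntSC 1 to 5. The IntSC genotypes overlapped (log2 fold change 0.09 ± 0.16, SE, 95% interval -0.22 to 0.40, edgeR adjusted p = 0.946). Lpar1 was 99.4, 57.6, 37.9 and 32.3 CPM in WT LEC 1 to 4 and 19.9, 25.8 and 0.130 CPM in KO LEC 1 to 3. All KO LEC libraries lay below all WT LEC libraries, but the difference did not pass (log2 fold change -1.89 ± 1.08, SE, edgeR adjusted p = 0.799). WT LEC 1, the library with the high stromal markers, held the highest LEC value, and the log2 fold change without it was -1.48 (edgeR adjusted p = 0.9996). LECs were below IntSCs by -3.50 ± 0.32 in WT and -5.55 ± 1.03 in KO mice on the log2 scale (SE, edgeR adjusted p of 1.08e-06 and 0.00322). The WT value without WT LEC 1 was -3.91 (edgeR adjusted p = 1.77e-07). Lpar1 overlaps Gm12577 and Mir3095 in the annotation.

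The other LPA receptors were sparse. Lpar4 (chrX:106920625-106933899), another receptor for LPA, had a lowest, median and highest level of 0, 5.85 and 13.9 CPM in WT IntSCs and was 10.3, 3.09, 10.5, 0 and 12.6 CPM in KO IntSC 1 to 5. Lpar4 in LECs was 6.85, 3.08, 0 and 0 CPM in WT LEC 1 to 4, and no KO LEC library held a read. Pooled levels were set against a floor of 3 counts over the KO LEC group. By this measure KO IntSCs were at least 60.6-fold and WT LECs at least 19.6-fold above KO LECs. These bounds cover counting error only, not the spread between libraries. Between the LEC genotypes Lpar4 did not pass the filter on low counts (edgeR adjusted p of 0.470 with no filter beyond 1 read and 0.150 with all 4 groups). The difference between KO LECs and KO IntSCs had an edgeR adjusted p of 0.0349. It was lost in 7 of the 8 fits that left out 1 library (all but that without KO IntSC 4, adjusted p up to 0.0659), and KO IntSC 4 itself had 0 reads.

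Lpar6 (chr14:73237891-73240358), the receptor known from inherited hair loss, did not pass the test in any comparison. It was 0, 6.06 and 10.3 CPM (lowest, median, highest) in WT IntSCs and 34.2, 7.38, 14.4, 0.152 and 4.12 CPM in KO IntSC 1 to 5. In the LECs it was 25.4, 7.38, 23.2 and 41.4 CPM in WT LEC 1 to 4 and 7.98, 54.4 and 35.9 CPM in KO LEC 1 to 3. The libraries overlapped in every comparison, and the largest difference was that of WT LECs against WT IntSCs (log2 fold change 2.07 ± 0.94, SE, edgeR adjusted p = 0.138). Lpar6 lies within Rb1, so reads of these genes cannot be told apart where they overlap.

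Sphk1, which makes S1P, and Spns2, which exports it, differed between the WT cell types in opposite directions. The other sphingosine kinase gene, Sphk2, was at 213 ± 101 CPM in WT LECs and 246 ± 188 CPM in WT IntSCs (SD, n = 4 and 6). In KO LECs and KO IntSCs it was at 70.6 ± 42.3 and 184 ± 41.6 CPM (SD, n = 3 and 5). Its counts may hold reads of the overlapping genes Dbp and Rpl18. Sphk1 (chr11:116530836-116536675) had a lowest, median and highest level of 15.9, 19.97 and 33.2 CPM in WT IntSCs and was 45.8, 57.7, 45.2, 10.7 and 66.4 CPM in KO IntSC 1 to 5. KO IntSC 4 lay below every WT library and the other KO libraries above every WT library. The genotypes differed by 1.01 ± 0.38 on the log2 scale (SE, edgeR adjusted p = 0.282), and by 1.27 without KO IntSC 4 (edgeR adjusted p = 0.0402, range over the fits that left out 1 library 0.0402 to 0.646). In LECs Sphk1 was 2.85, 0.123, 0.187 and 6.06 CPM in WT LEC 1 to 4 and 23.8, 0 and 5.06 CPM in KO LEC 1 to 3, which overlapped. WT LECs were lower than WT IntSCs (log2 fold change -3.27 ± 1.03, SE, edgeR adjusted p = 0.0314). This call was lost without WT IntSC 1, WT IntSC 5, WT LEC 1 or WT LEC 3, with adjusted p of 0.0804, 0.0669, 0.0508 and 0.0512. Between KO LECs and KO IntSCs it did not pass (log2 fold change -2.29 ± 1.27, SE, edgeR adjusted p = 0.230).

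Spns2 (chr11:72451638-72489976), the S1P exporter, was high in LECs. It was 304, 186, 223 and 274 CPM in WT LEC 1 to 4 and 351, 284 and 183 CPM in KO LEC 1 to 3. The LEC genotypes overlapped (log2 fold change 0.15 ± 0.30, SE, 95% interval -0.43 to 0.74, edgeR adjusted p = 0.9999). In WT IntSCs the lowest, median and highest level was 0.207, 7.47 and 13.1 CPM, and in KO IntSC 1 to 5 it was 28.5, 26.7, 13.6, 37.9 and 17.5 CPM. Each KO IntSC library lay above every WT library, though KO IntSC 3 only narrowly above WT IntSC 1, and the 3.48-fold difference did not pass (log2 fold change 1.80 ± 0.63, SE, edgeR adjusted p = 0.220). LECs were 34.4-fold above IntSCs in WT and 10.5-fold above them in KO mice (log2 fold changes of 5.10 ± 0.61 and 3.39 ± 0.36, SE, edgeR adjusted p of 2.87e-05 and 9.88e-05). The test of the genotype change between the cell types gave 1.70 ± 0.78 (SE, edgeR adjusted p = 0.294). Spns2 overlaps Gm40194 and Mybbp1a in the annotation.

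The S1P receptors divided between the cell types. S1pr1 (chr3:115710433-115715055), the receptor that keeps endothelial junctions closed, was 209, 209, 259 and 321 CPM in WT LEC 1 to 4 and 77.9, 269 and 194 CPM in KO LEC 1 to 3. KO LEC 1 and KO LEC 3 lay below all WT LECs, and KO LEC 2 among them (log2 fold change -0.46 ± 0.38, SE, 95% interval -1.20 to 0.28, edgeR adjusted p = 0.989). In IntSCs its lowest, median and highest level was 1.48, 15.3 and 23.0 CPM in WT, and it was 49.6, 37.0, 52.8, 47.7 and 29.3 CPM in KO IntSC 1 to 5. All KO IntSC libraries lay above all WT libraries, a 2.93-fold difference (log2 fold change 1.55 ± 0.44, SE) that did not pass the main test (edgeR adjusted p = 0.101). The adjusted p was 0.0380 with DESeq2 (range over the 5 alternatives 0.0380 to 0.158) and 0.0374 without WT IntSC 3, the library with the lowest value (log2 fold change 1.31).

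S1pr1 was 16.9-fold higher in LECs than in IntSCs of WT mice and 3.95-fold higher in KO mice (log2 fold changes of 4.08 ± 0.48 and 1.98 ± 0.37, SE, edgeR adjusted p of 2.03e-05 and 0.00348). The call in KO mice held in 4 of 5 alternatives (adjusted p of 4.74e-05 to 0.118). The IntSC change minus the LEC change was 2.09 ± 0.65 (SE, edgeR adjusted p = 0.103), and 1.85 without WT IntSC 3 (edgeR adjusted p = 0.0394, range over the 18 such fits 0.0394 to 0.196). Endothelial genes were followed beside S1pr1 and Spns2 in the IntSCs. The 10 LEC markers summed to 333 to 510 CPM in WT IntSCs and 485 to 761 CPM in KO IntSCs, against 9861 to 16461 CPM in LECs. The largest of them in IntSCs were Pdpn, at 236 CPM in WT and 326 CPM in KO, and Nrp2, at 128 and 172 CPM. The sum in IntSCs is therefore no measure of lymphatic RNA alone. Prox1 was at 0.0786 CPM in WT and 0.0800 CPM in KO IntSCs, Lyve1 at 5.44 and 5.41 CPM and Mmrn1 at 2.16 and 1.77 CPM, while Flt4 was at 3.82 and 9.46 CPM. Of the genes shared by all endothelium, Cdh5 was at 10.4 ± 11.3 CPM in WT and 19.3 ± 6.07 CPM in KO IntSCs and Tie1 at 18.3 ± 10.6 and 32.8 ± 12.1 CPM (SD, n = 6 and 5, edgeR adjusted p of 0.809 and 0.527). The 7 blood endothelial markers summed to 1447 to 2996 CPM in WT and 1249 to 1610 CPM in KO IntSCs. The members of this list went different ways. Cd34, which stromal cells also express, fell from 1685 to 816 CPM on average (log2 fold change -1.05, edgeR adjusted p = 0.00688). Flt1, a receptor for vascular endothelial growth factor, was at 54.3 CPM in WT and 108 CPM in KO IntSCs, and the water channel gene Aqp1 at 47.0 and 88.8 CPM (log2 fold changes of 0.99 and 0.91, edgeR adjusted p of 0.174 and 0.295). Plvap was at 157 and 169 CPM and Emcn at 8.38 and 9.78 CPM. Nrp1 was at 237 CPM in WT and 195 CPM in KO IntSCs and Esm1 at 7.40 and 0.428 CPM (edgeR adjusted p of 0.696 and 0.187). The part of endothelial RNA in the S1pr1 and Spns2 levels of the IntSCs was not tested. In these bulk samples, more cells that express a gene and more RNA per cell cannot be told apart.

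S1pr3 (chr13:51408618-51422797), a receptor common in smooth muscle and other mural cells, was found in IntSCs and nearly absent from LECs. Its lowest, median and highest level was 8.69, 37.7 and 51.9 CPM in WT IntSCs, and it was 7.44, 28.6, 39.3, 34.3 and 34.7 CPM in KO IntSC 1 to 5, which overlapped (log2 fold change -0.26 ± 0.42, SE, edgeR adjusted p = 0.945). In WT LECs only WT LEC 3 held reads, 2 in number, and WT IntSCs had 695 times the pooled level (counting interval 192 to 5743, edgeR adjusted p = 1.83e-05). In KO LECs the value was 35.6 CPM in KO LEC 1, from 250 reads, and 0 in KO LEC 2 and KO LEC 3. This library decided each S1pr3 result of the KO LECs. The log2 fold change of KO LECs against KO IntSCs was -1.33 ± 1.65 (SE, edgeR adjusted p = 0.640), and -10.85 without KO LEC 1 (edgeR adjusted p = 0.00105). The IntSC change minus the LEC change was -7.72 ± 1.95 (SE, edgeR adjusted p = 0.0420), and 1.79 without KO LEC 1 (edgeR adjusted p = 0.660). KO LEC 1 also held the highest Sphk1 value of the LECs, 23.8 CPM, while its stromal markers summed to 327 CPM, the lowest of the LEC libraries, and its smooth muscle markers to between 114 and 128 CPM like the other KO LECs. Its 6 pericyte markers summed to 108 CPM, the lowest of the KO LECs. Among them Abcc9 reached its highest LEC level there, 75.2 CPM, where WT IntSCs had 56.7 ± 14.0 CPM (SD, n = 6). Other markers of the list were low: Rgs5, Cspg4 and Notch3 reached at most 0.427, 5.68 and 19.1 CPM in any KO LEC library. In WT IntSCs they averaged 103, 67.1 and 148 CPM. Higd1b had no read in the KO LECs and averaged 8.49 CPM in WT IntSCs. The largest of the 6 in LECs was Kcnj8, at 105 CPM in WT and 83.8 CPM in KO LECs on average. It was at 35.6 and 13.4 CPM in WT and KO IntSCs, so the sum in LECs does not measure mural cells alone. The part of mural cell RNA was not tested. S1pr3 overlaps Gm32834 in the annotation.

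Of 34 other genes of LPA and S1P metabolism and signalling, chosen by function, 24 were tested in IntSCs. Between the IntSC genotypes 1 rose and 0 fell, where 1.47% of all genes tested passed. This was Gdpd3, a phosphodiesterase that can release LPA from lysophospholipids. In WT IntSCs its lowest and highest levels were 0 and 4.78 CPM, and in KO IntSC 1 to 5 it was 59.4, 82.4, 72.3, 9.44 and 8.64 CPM. KO IntSC 1 to 3 lay far above the other KO libraries and all KO libraries lay above WT (log2 fold change 4.51 ± 0.81, SE, edgeR adjusted p = 0.00669). The 7 epithelial markers summed to 0.509 to 41.0 CPM in WT and 12.6 to 42.9 CPM in KO IntSCs, and their part, with that of the Paneth cell markers above, was not tested. Between the LEC genotypes 0 of 23 passed, beside 0.0658% of all genes. The sphingosine kinase Sphk2, the S1P lyase Sgpl1, the S1P receptor S1pr2 and the ceramidase Acer2 had log2 differences between the IntSC genotypes of -0.42, 0.59, -0.24 and 1.82 (edgeR adjusted p of 0.945, 0.256, 0.863 and 0.332).

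Between cell types, the share of the other genes that passed in WT mice was no larger than that of all genes. There 2 of 24 were higher in LECs, Acer2 (log2 fold change 4.88) and the inhibitory G protein subunit Gnai2 (1.56), and 2 were lower, S1pr2 (-3.84) and Sgpl1 (-1.97), beside 10.3% and 12.3% of all genes. In KO mice 4 of 24 were higher (9.11% of all genes), Acer2 (2.18), Gnai2 (2.05), Pla1a (2.66) and Gde1 (1.33). Another 4 were lower (16.8% of all genes), S1pr2 (-4.06), Sgpl1 (-2.81), the S1P phosphatase Sgpp1 (-2.96) and Sphk2 (-1.46). Sphk2 overlaps Dbp and Rpl18 in the annotation, so it may hold their reads, and its level ran from 27.5 to 487 CPM among the WT IntSC libraries. The phospholipase gene Pla1a was at 33.9, 39.5, 32.1 and 35.9 CPM in WT LEC 1 to 4 and 83.5, 115 and 126 CPM in KO LEC 1 to 3. The KO LEC libraries of Pla1a lay above the WT LECs, but the difference did not pass (log2 fold change 1.62 ± 0.43, SE, edgeR adjusted p = 0.266). The IntSC and LEC genotype changes differed for 0 of 26 other pathway genes by the edgeR test, beside 1.7% of all genes. The medians of these genes, 0.05 between IntSC genotypes, -0.16 between LEC genotypes, 0.43 and 0.12 between cell types in WT and KO mice, stood beside 0.00, -0.03, -0.04 and -0.21 for all genes tested.

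**Figure D4:**
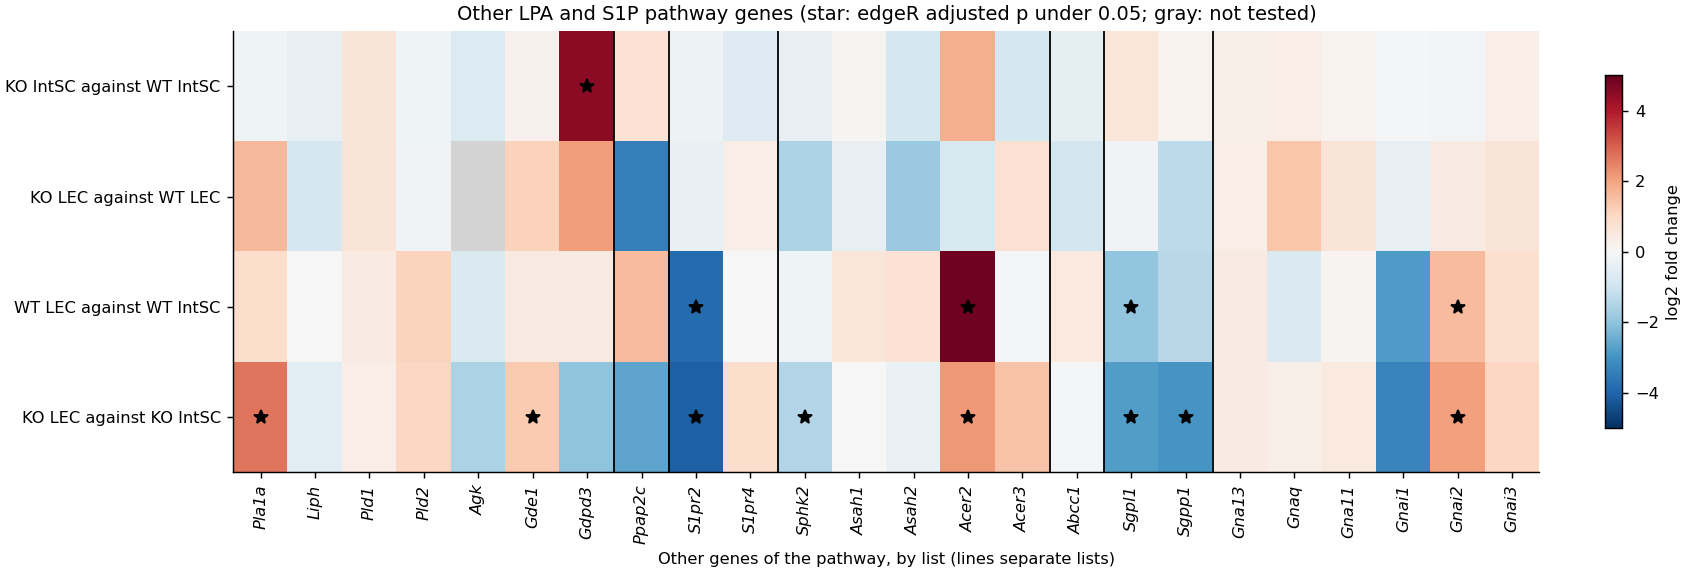
Log2 fold change (colour) of the other LPA and S1P pathway genes tested in at least 1 of 4 comparisons, grouped from left to right as LPA production, phosphatases, S1P receptors, S1P synthesis, S1P export, S1P breakdown and G protein subunits. A place in the LPA production list does not mean that LPA is the main product of the enzyme. Stars mark an edgeR adjusted p under 0.05: Gdpd3 between IntSC genotypes, none between LEC genotypes, 4 genes between cell types in WT and 8 in KO mice.

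The order of the group means describes the same values as the tests above and is no separate support for them. For Spns2 and S1pr1 the LECs of both genotypes came above the IntSCs, with KO IntSCs above WT IntSCs, and only the LEC genotypes overlapped. For Ppap2b the order was KO IntSC, WT IntSC, WT LEC and KO LEC, at 2679 ± 467, 1433 ± 93.7, 309 ± 73.0 and 268 ± 88.1 CPM (SD, n = 5, 6, 4 and 3), and only the LEC groups overlapped. For Ppap2a it was KO LEC, WT LEC, KO IntSC and WT IntSC, at 654 ± 138, 222 ± 67.8, 80.7 ± 15.8 and 60.5 ± 23.7 CPM (SD, n = 3, 4, 5 and 6), and only the IntSC groups overlapped. For Lpar1 it was KO IntSC, WT IntSC, WT LEC and KO LEC, and only the IntSC groups overlapped. For Enpp2, Lpar4, Lpar6, S1pr3 and Sphk1 each group overlapped the next in order.

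As a description, the genes most like each member over the 18 libraries were found by Pearson's r of log2(CPM + 1) among 10728 genes with a mean of at least 5 CPM. The 18 points share 4 groups and their depth, so r mainly follows the group means. Ppap2b was most like Scara5 (r = 0.976) and Gria3 (0.971), and Lpar1 most like Ms4a4d (0.975) and the collagen gene Col5a1 (0.968). S1pr1 was most like Prss23 (0.940) and Arhgap29 (0.938), and Spns2 most like Grap (0.957) and Ndrg1 (0.951). Ppap2a was most like Dusp3 (0.944) and Pea15a (0.942), and Enpp2 most like Ddx39 (0.934) and Tor2a (0.933). S1pr3 was most like Sema3b (0.961) and Pln (0.953), and Sphk1 most like the tropomyosin gene Tpm2 (0.915) and Tead1 (0.907), the gene of a TEAD factor. The values were lower for Lpar6 (Rftn1, 0.881, and Rad54l, 0.860) and Lpar4 (Gabpa, 0.863, and Hsp90aa1, 0.817).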

How the data were processed

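The RNA was read with the QuantSeq protocol, which counts the 3′ end of transcripts. The deposited files were the authors' raw counts, whole-number reads per gene symbol with no normalisation, in 1 table for each library. The study's methods name TopHat and Cufflinks, and the submitters' processing notes name Bowtie2, edgeR and the build mm10 (GRCm38). The counting program, annotation and strand setting are not given in the sources used here. Groups and replicate numbers came from sample titles. Each table held 23282 rows, and counts of 35 symbols on more than 1 row, none of the 10 genes among them, were summed.

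Each comparison was fitted on its 2 groups with edgeR 4.0.16 in R 4.3.3: TMM factors, filterByExpr, a robust quasi-likelihood test and Benjamini-Hochberg adjustment over all genes tested, with 0.05 as the threshold. The difference of genotype changes used all 4 groups. Standard errors come from the quasi-likelihood F, and 95% intervals from them. Counting intervals of pooled ratios, and the floor of 3 counts, cover counting error only. The procedure was tested on simulated data. The genes and lists were chosen with earlier results of these data known. Named were the 10 genes, the other pathway genes past the threshold with a mean of at least 5 CPM (others after their values were seen), and the 2 most similar genes of each. Alternatives were DESeq2 1.42.0, RLE factors, no filter beyond 1 read, the replicate number as a block, all 4 groups in a fit, and each library left out. Coordinates and overlaps come from the RefSeq gene table of GRCm38.p6. Some signalling genes of the pathway lists are not reported here.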

Additional observations from a re-analysis of the deposited data

Results flagged for a closer look

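The genotype change of Enpp2 differed between the cell types by 6.76 on the log2 scale (IntSC change minus LEC change, edgeR adjusted p = 0.00799, and 7.52e-06 to 0.417 over 4 alternatives). The same difference was 1.16 for Ppap2b (edgeR adjusted p = 0.0434) and -7.72 for S1pr3 (edgeR adjusted p = 0.0420). The Enpp2 value is set by 4 reads in the KO LECs. The S1pr3 value rests on KO LEC 1, the KO LEC library that held reads of this gene. A further value stood apart from its group, the S1pr3 level of 0.187 CPM (2 reads) in WT LEC 3, where the other WT LEC libraries had 0. Of 30 groups of values examined for such a library, chance would mark 1.5, and 1 was marked.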

How the results depend on the processing

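With each library left out in turn, the number of genes passing between IntSC genotypes (183) ranged from 99 to 186 (121 without WT IntSC 1 or KO IntSC 5, and 105, 101 and 99 without KO IntSC 1, 2 and 3) and that of the 10 genes (1) from 1 to 2. Between LEC genotypes (7 and 0) these were 0 to 16 (1, 0 and 2 without WT LEC 2, 3 and 4, and 3, 16 and 4 without KO LEC 1, 2 and 3) and 0 to 0, between cell types 2233 to 2889 and 6 to 7 in WT (2763 and 7) and 2557 to 3320 and 6 to 7 in KO mice (3302 and 7), and for the difference of genotype changes (238 and 3) 161 to 461 (461 and 379 without KO LEC 2 and 3) and 1 to 3. DESeq2 gave 369 and 2 between IntSC genotypes, 309 and 2 between LEC genotypes and 1023 for the difference. With all 4 groups in a fit the counts were 27 between IntSC and 538 and 3 between LEC genotypes, the third being S1pr3 (edgeR adjusted p = 0.0158, and 0.470 with no filter), which rests on KO LEC 1. With no filter beyond 1 read, LECs gave 32 and 1. The call of Ppap2b for the difference was lost with RLE factors (1.05, adjusted p = 0.0778) and no filter (1.11, 0.0531), with a range of 0.0208 to 0.377 over the alternatives. The fold change of Enpp2 between IntSC genotypes, near 0, became 4.37e-04 with all 4 groups. Signs changed without a library, with ranges of -0.091 to 0.18 for Enpp2, -0.018 to 0.14 for Lpar1 and -0.056 to 0.64 for Lpar4 in IntSCs, -0.066 to 0.38 for Spns2, -0.38 to 0.066 for Ppap2b and -0.12 to 0.91 for Lpar6 in LECs, and -0.17 to 1.27 for Lpar6, -9.72 to 1.79 for S1pr3 and -2.10 to 0.96 for Sphk1 in the difference. The cause of these shifts was not tested.

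Whether replicate numbers pair the libraries is not known. Deviations of same-numbered libraries from their group means correlated at 0.0204, -0.00394, 0.0360 and 0.00347 on average over the 4 comparisons. For libraries of other numbers these were -0.00314, 0.00131, -0.00720 and -9.69e-04. The 4 same-numbered pairs of WT LECs and WT IntSCs ranged from 0.0234 to 0.0448. A low correlation does not exclude a shared mouse, so these values cannot decide it. With the number as a block, 3 genes passed between LEC genotypes, 1596 and 895 between cell types in WT and KO mice, and 16 and 0 of the 10 for the difference, with S1pr3 at -2.22 and Enpp2 at 6.61 (edgeR adjusted p of 0.985 and 0.417). Under the block S1pr1 and Lpar4 between KO cell types and Sphk1 between WT cell types were not called either (adjusted p of 0.118, 0.203 and 0.0833). At least 1 library held 0 to 3 reads for Lpar4, for Enpp2, Lpar1, S1pr3 and Sphk1 in LECs and for Lpar6 and Spns2 in IntSCs, so these levels are imprecise there. Over all genes, libraries of a group differed by more than counting error (chi-square per degree of freedom of at least 30.1). The part of depth and of the number of genes detected in the low values was not tested.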
